A study of Homo sapiens with 6 samples.

Results

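The genes described here are 10 that copy, set and remove DNA methylation or form the core of Polycomb repressive complex 2 (PRC2): UHRF1, DNMT1, DNMT3A, DNMT3B, TET1, TET2, TET3, EZH2, SUZ12 and EED. They were taken by symbol from a table of 50229 gene symbols, and 9 of the 10 were abundant enough to be tested among 13748 genes. Messenger RNA was sequenced as paired-end, poly(A)-selected libraries. The siEIF4G2 group holds 3 libraries from cells treated with an EIF4G2-directed small interfering RNA at 50 nM, EIF4G2 being a translation initiation factor, and the siNC group holds 3 libraries from cells treated with a control one at the same 50 nM. All carry the label Hep3B, the name of a line from human liver cancer. The sequences of the small interfering RNAs and the time after transfection were not found in the labels. The labels do not say that replicates were separate cultures, so the p-values cover only library-to-library spread, and that may be technical. In bulk RNA, fewer cells in a state and less RNA per cell cannot be told apart.

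DNA methylation is a methyl mark on cytosines next to guanines, usually linked to silenced genes and repeats. UHRF1 binds the hemimethylated DNA left behind a replication fork and recruits DNMT1, which copies the mark to the new strand, while DNMT3A and DNMT3B set new marks. TET1, TET2 and TET3 oxidise methylcytosine on the way to its removal. PRC2 methylates a lysine in the tail of histone H3 and keeps developmental genes silent: EZH2 is its catalytic subunit, and SUZ12 and EED are needed for its activity. UHRF1, DNMT1 and EZH2 are known to be high in dividing cells.

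Total counts were 63351653 to 72863628 per library. EIF4G2 was 5.41-fold lower in siEIF4G2, at 178, 179.8 and 199.8 CPM, than in siNC, at 1103, 913 and 998 CPM. CPM are counts scaled to the library total and to edgeR's TMM factor. Hepatocyte markers went against the liver label in both groups: 11 of 16, among them ALB, AFP, APOA1, APOB and GPC3, had 0 counts in all 6 libraries, which allows up to 0.0403 to 0.0466 CPM per library (3 counts, counting error only), and 15 of 16 were under 1 CPM. Of 8 epithelial markers 4 were tested, with 0 higher and 2 lower, and 3 were under 1 CPM. KRT7 was 2.13-fold lower and KRT18 1.13-fold lower, a call lost without siEIF4G2 replicate 1 or 3 or any siNC replicate, while KRT8 did not pass (1434 ± 109 CPM in siEIF4G2, 1579 ± 27.6 CPM in siNC). Of 10 fibroblast and stellate cell markers 7 were tested, with 3 higher and 3 lower in siEIF4G2 (1 higher without siEIF4G2 replicate 1 or 2 or siNC replicate 2). The list summed to 101 to 103 FPKM in siEIF4G2 and 81.4 to 90.4 FPKM in siNC. The mean log2 CPM of its tested genes went the other way, at 4.85 to 4.99 in siEIF4G2 and 5.17 to 5.30 in siNC. FPKM are fragments scaled to transcript length and library size. Of 10 blood markers 2 were tested and CD68 was lower (1.55-fold), with PTPRC and CD3E at 0 counts, and of 7 endothelial markers only CDH5 was tested and was lower (3.01-fold). All 5 adipocyte markers, included because the protocol speaks of an adipose type, were under 1 CPM. Over all tested genes 15.9% were higher and 17.6% lower. The part of these markers in the results was not tested.

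After EIF4G2 silencing, RNA of 6 of the 10 genes rose: UHRF1, TET3, DNMT3B, TET2, EZH2 and SUZ12. None fell past the threshold, DNMT1, EED and DNMT3A did not pass it, and TET1 was too low to test. UHRF1 rose most, 1.81-fold, and SUZ12 least among those called, 1.32-fold. A call means an edgeR quasi-likelihood p, adjusted by Benjamini-Hochberg over all 13748 genes, under 0.05. Of all tested genes 33.4% were called, 15.9% higher and 17.6% lower. The median log2 fold change was 0.0075 over all tested genes and 0.42 over the 9 tested here. The groups' values did not overlap for 8 of the 9 genes (7 higher, 1 lower), which 50.6% of all tested genes share (25% higher, 25.5% lower). Each of the 8 had an exact two-sided permutation p of 0.1, the smallest that 3 against 3 libraries can give. SUZ12, TET2 and DNMT3B lost their calls when some single libraries were left out, and 3 genes were then called higher without siEIF4G2 replicate 1, siEIF4G2 replicate 3 or siNC replicate 1.

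**Figure D1:**
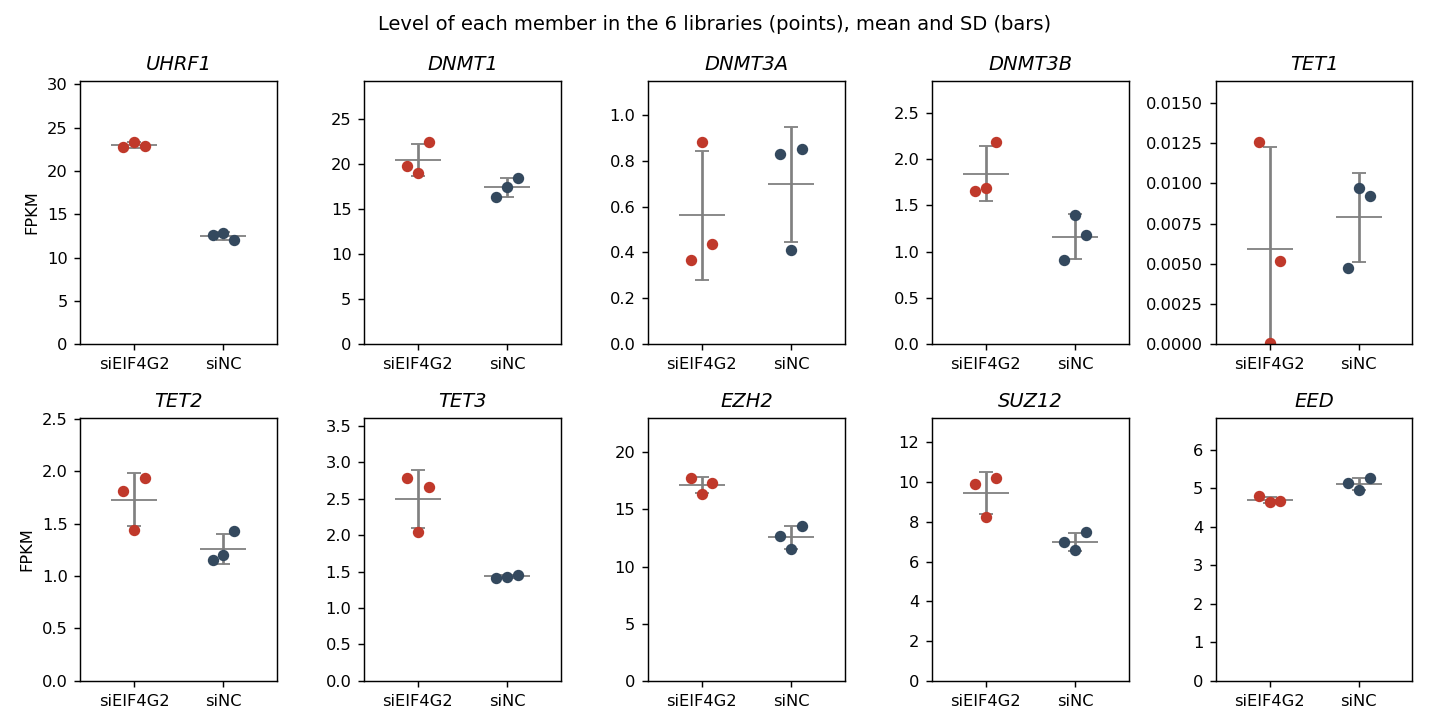
FPKM of each gene in the 3 siEIF4G2 and 3 siNC libraries (points), with group mean and SD (bars); each panel has its own axis from 0. UHRF1 lies at 22.7 to 23.4 in siEIF4G2 and 12.0 to 12.8 in siNC, while the DNMT3A groups overlap.

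The start regions of 4 of these genes are shown to set UHRF1, EZH2 and TET3, called under every alternative tried, beside DNMT1, which was not called. Where a gene has several windows, the one printed for UHRF1 and EZH2 is the one with the most matches. The one printed for TET3 is not, so the windows shown were not chosen alike. The printed TET3 window also ends before the deposited TET3 interval, which begins at 73986404. RefSeq (GRCh38.p14) gave 22 windows for the 10 genes, each from 250 bases before to 50 bases after a start site. Capitals mark matches on either strand to TTTCGCGC or TTTGGCGC, 8-letter forms of the motif of E2F factors, which drive genes of DNA replication, and to CCAAT, the box bound by NF-Y.
UHRF1 (chr19:4909894-4910193, plus strand): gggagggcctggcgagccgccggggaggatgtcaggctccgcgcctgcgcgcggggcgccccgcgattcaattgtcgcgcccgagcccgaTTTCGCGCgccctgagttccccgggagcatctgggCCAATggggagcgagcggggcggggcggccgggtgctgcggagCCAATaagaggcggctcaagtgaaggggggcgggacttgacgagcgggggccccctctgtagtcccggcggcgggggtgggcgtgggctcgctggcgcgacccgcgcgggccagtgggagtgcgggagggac
DNMT1 (chr19:10194904-10195203, minus strand): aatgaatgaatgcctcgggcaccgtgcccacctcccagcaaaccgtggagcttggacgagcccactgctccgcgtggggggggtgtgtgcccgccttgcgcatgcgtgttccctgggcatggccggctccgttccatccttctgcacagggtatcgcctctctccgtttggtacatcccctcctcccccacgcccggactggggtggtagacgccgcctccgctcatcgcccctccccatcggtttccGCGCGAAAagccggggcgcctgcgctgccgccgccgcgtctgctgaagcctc
EZH2 (chr7:148884242-148884541, minus strand): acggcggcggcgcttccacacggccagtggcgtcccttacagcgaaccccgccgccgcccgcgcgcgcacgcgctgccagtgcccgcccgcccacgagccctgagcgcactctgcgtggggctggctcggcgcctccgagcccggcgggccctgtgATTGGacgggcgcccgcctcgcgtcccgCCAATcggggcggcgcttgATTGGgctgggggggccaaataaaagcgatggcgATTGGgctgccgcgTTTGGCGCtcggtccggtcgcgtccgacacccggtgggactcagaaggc
TET3 (chr2:73984660-73984959, plus strand): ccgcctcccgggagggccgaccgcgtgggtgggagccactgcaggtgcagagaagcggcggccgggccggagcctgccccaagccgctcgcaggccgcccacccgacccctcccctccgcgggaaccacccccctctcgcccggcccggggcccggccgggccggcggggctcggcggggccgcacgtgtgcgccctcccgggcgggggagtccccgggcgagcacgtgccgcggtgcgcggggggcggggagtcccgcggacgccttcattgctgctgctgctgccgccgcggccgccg
An E2F form stood in 3 of the 22 windows, those of UHRF1, DNMT1 and EZH2 shown here, and in 1.14% of 34943 RefSeq windows. TTTCGCGC began 160 bases before the UHRF1 start site, the DNMT1 match lay on the opposite strand 2 bases before its start site, and TTTGGCGC began 1 base after the EZH2 start site. CCAAT occurred 4 times in the EZH2 window and 2 times in the UHRF1 window, and 34.6% of all windows held it. The TET3 window shown held neither. The other windows of these genes are not shown: of 2 further UHRF1 windows 1 held a CCAAT, the further EZH2 window held no match, and the further TET3 window held 1 CCAAT on the opposite strand, 57 bases before its start site. The windows shown for UHRF1, DNMT1, EZH2 and TET3 had 40, 30, 46 and 45 CpG dinucleotides, against a median of 14 over all windows. Windows of the other genes ranged from 3 (DNMT3B) to 46 (a DNMT3A window). The motif shares over all windows were not matched for CpG content. A match describes letters and shows no binding.

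UHRF1, the reader of hemimethylated DNA, lies on chromosome 19, 4903080 to 4962154 (plus strand); coordinates are those of the deposited table, which fit GRCh38. Its siEIF4G2 libraries held 137, 145 and 138 CPM and its siNC libraries 78.6, 79.5 and 74.5 CPM. The lowest siEIF4G2 library lay far above the highest siNC library. The log2 fold change was 0.85 (SE 0.047; edgeR adjusted p = 0.000291). Its paralog UHRF2 was 1.25-fold higher (edgeR adjusted p = 0.0139). UHRF1 to UHRF2 ratios in FPKM were 4.63, 4.22 and 4.46 in siEIF4G2 libraries and 3.09, 3.08 and 3.01 in siNC libraries, without overlap.

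DNMT1, the maintenance methyltransferase, lies on chromosome 19, 10133345 to 10231286 (minus strand). It stood at 227, 226 and 259 CPM in the siEIF4G2 libraries, and siNC libraries were at 195, 206 and 218 CPM. The groups did not overlap but nearly touched, and the log2 fold change of 0.20 (SE 0.073) did not pass (edgeR adjusted p = 0.0772). S1PR2 overlaps DNMT1 on the same strand with 1.89% as many counts. Per length, UHRF1 exceeded DNMT1 in all 3 siEIF4G2 libraries, at 1.15, 1.22 and 1.02 times its FPKM, and was below it in all 3 siNC libraries, at 0.769, 0.736 and 0.651 times.

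DNMT3B, which sets new marks, was low. Its siEIF4G2 libraries showed 8.98, 9.46 and 11.9 CPM, with 5.14, 7.81 and 6.57 CPM in the siNC libraries. The gap between the groups was smaller than the spread within either. The log2 fold change was 0.64 (SE 0.19; edgeR adjusted p = 0.0472). That call was lost without siEIF4G2 replicate 1 (adjusted p = 0.0673), 2 (0.0788) or 3 (0.123) and without siNC replicate 1 (0.103) or 3 (0.106). DNMT3A, the other enzyme of this kind, stood at 5.20, 12.9 and 6.22 CPM across siEIF4G2 libraries and at 12.2, 6.001 and 12.4 CPM across siNC libraries. Both groups held low and high libraries, and the log2 fold change of -0.33 had a standard error of 0.43 (edgeR adjusted p = 0.595). DNMT1 made up 89.5% ± 1.32 of the summed FPKM of the 3 methyltransferases in siEIF4G2 and 90.4% ± 0.255 in siNC (SD, n = 3 each).

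TET3, which oxidises methylcytosine, lies on chromosome 2, 73986404 to 74108176 (plus strand). The siEIF4G2 libraries had 40.0, 30.3 and 38.3 CPM, whereas siNC libraries had 21.1, 21.1 and 21.5 CPM. The siNC libraries were nearly identical, and siEIF4G2 replicate 2 was the lowest of its group yet above every siNC library. The log2 fold change was 0.77 (SE 0.11; edgeR adjusted p = 0.00411), 1.70-fold. TET2, of the same activity, had 35.0, 28.7 and 37.4 CPM in siEIF4G2 libraries, while siNC libraries had 23.0, 23.8 and 28.3 CPM. The lowest siEIF4G2 value was next to the highest siNC value. Its log2 fold change was 0.43 (SE 0.13; edgeR adjusted p = 0.0467). The TET2 call was lost without siEIF4G2 replicate 1 (adjusted p = 0.117) or 3 (0.123), without siNC replicate 1 (0.129) or 2 (0.127), and with limma on log2(FPKM + 1) (0.0627). TET3 to TET2 ratios in FPKM were 1.54, 1.42 and 1.38 in siEIF4G2 and 1.23, 1.19 and 1.02 in siNC, which did not overlap. TET1, the third enzyme of the family, had 11, 0 and 4 counts in siEIF4G2 libraries and 4, 8 and 8 counts in siNC libraries, so no fold is given.

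EZH2, the methyltransferase of PRC2, lies on chromosome 7, 148807383 to 148884321 (minus strand). In siEIF4G2 libraries it reached 93.9, 89.3 and 92.0 CPM, set against 69.3, 62.7 and 73.6 CPM in siNC libraries. The gap between the groups was wider than the spread within either. The log2 fold change was 0.42 (SE 0.068; edgeR adjusted p = 0.00585). SUZ12, a structural subunit, reached 76.1, 65.1 and 78.3 CPM in siEIF4G2 libraries, set against 55.4, 51.8 and 58.9 CPM in siNC libraries. The groups did not overlap, and the log2 fold change was 0.40 (SE 0.089; edgeR adjusted p = 0.0171). This call was lost without siEIF4G2 replicate 1 (adjusted p = 0.0537) or 3 (0.0518) and without siNC replicate 1 (0.0537) or 2 (0.0553). The pseudogene SUZ12P1 held 10.55% as many counts and had a log2 fold change of 0.45 (edgeR adjusted p = 0.0687). How reads that fit both copies were counted is not known, so the SUZ12 level is uncertain.

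EED, the subunit that binds the methylated histone tail, was slightly lower in each siEIF4G2 library, at 38.3, 38.2 and 37.4 CPM, than in any siNC library, at 42.3, 40.6 and 43.1 CPM. The log2 fold change of -0.15 (SE 0.051) did not pass (edgeR adjusted p = 0.0703), nor did it under any alternative. Ratios within a library do not depend on scaling between libraries. EZH2 to SUZ12 ratios in FPKM were 1.79, 1.99 and 1.70 in siEIF4G2 and 1.81, 1.75 and 1.81 in siNC, which overlap. EZH2 to EED ratios were 3.69, 3.53 and 3.71 in siEIF4G2 and 2.47, 2.33 and 2.57 in siNC, 1.48-fold higher on average, and SUZ12 to EED was 1.47-fold higher, neither with overlap.

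**Figure D2:**
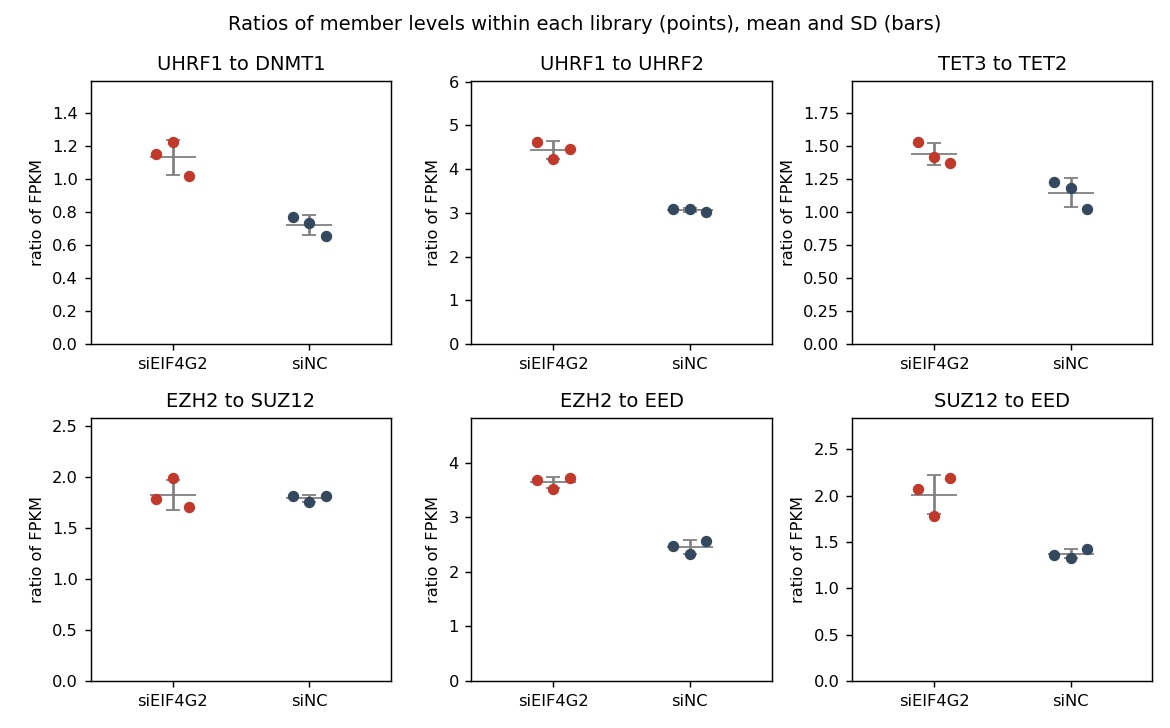
Ratios of FPKM between pairs of genes within each library (points) with mean and SD (bars), siEIF4G2 left and siNC right. EZH2 to SUZ12 averages 1.82 in siEIF4G2 and 1.79 in siNC, while both genes stand higher against EED in siEIF4G2.

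By level per length, the siEIF4G2 order was UHRF1 (23.0 ± 0.325 FPKM), DNMT1 (20.5 ± 1.81), EZH2 (17.1 ± 0.683), SUZ12 (9.44 ± 1.05), EED (4.70 ± 0.0820), TET3 (2.49 ± 0.393), DNMT3B (1.84 ± 0.298), TET2 (1.73 ± 0.254), DNMT3A (0.561 ± 0.281) and TET1. The siNC order was DNMT1 (17.4 ± 1.04 FPKM), EZH2 (12.6 ± 1.005), UHRF1 (12.5 ± 0.408), SUZ12 (7.01 ± 0.455), EED (5.11 ± 0.152), TET3 (1.43 ± 0.0213), TET2 (1.26 ± 0.147), DNMT3B (1.16 ± 0.242), DNMT3A (0.697 ± 0.249) and TET1 (SD, n = 3 each). Neighbours whose ranges overlapped were TET3 with DNMT3B and DNMT3B with TET2 in siEIF4G2, and EZH2 with UHRF1, TET3 with TET2 and TET2 with DNMT3B in siNC.

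Genes of dividing cells rose in the same libraries. Of 28 S phase genes 19 were higher and 0 lower (median log2 fold change 0.26), among them RRM2, a subunit of ribonucleotide reductase (1.84-fold). Of 22 mitosis genes 20 were higher and 0 lower (median 0.71), among them MYBL2, a transcription factor of cycling cells (2.25-fold). Higher genes made up 67.9% of the S phase list and 90.9% of the mitosis list, against 15.9% of all tested genes. Lower genes made up 0% of each, against 17.6%. The part of S phase and mitosis genes in the changes described here was not tested. Set against the S phase mean of its own library, UHRF1 lay at 0.17 to 0.22 log2 units in siEIF4G2 and at -0.38 to -0.30 in siNC, a difference of 0.52. TET3 differed by 0.43 on this scale and EED by -0.48, also without overlap. EZH2 (0.089), SUZ12 (0.066), TET2 (0.092) and DNMT1 (-0.13) had overlapping groups. Against the mitosis mean, UHRF1 (0.14) and TET3 (0.047) overlapped, and EZH2 (-0.29), SUZ12 (-0.31), TET2 (-0.29), DNMT1 (-0.51) and EED (-0.86) were lower in siEIF4G2.

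**Figure D3:**
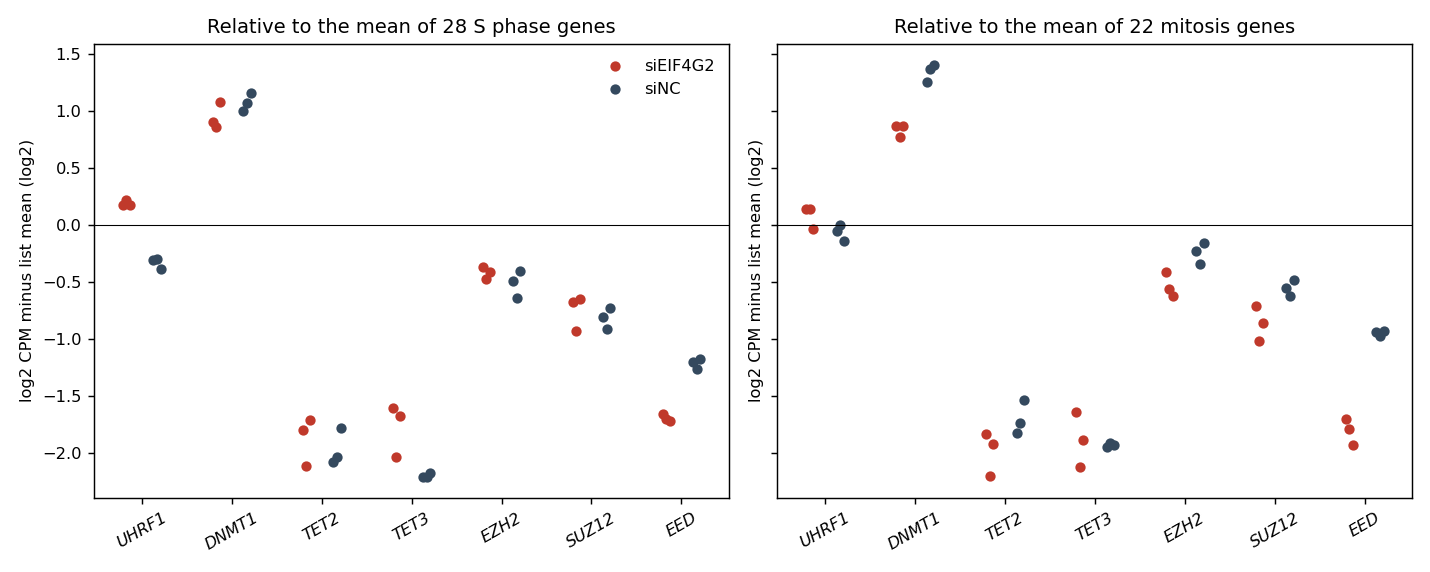
Log2 CPM of UHRF1, DNMT1, TET2, TET3, EZH2, SUZ12 and EED in each library minus the mean of 28 S phase genes (left) or 22 mitosis genes (right) of that library. UHRF1 lies above the S phase mean in siEIF4G2 and below it in siNC.

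Patterns over the 6 libraries were compared by root mean square difference of centred log2 CPM. Symbols with the form of clone, locus or pseudogene names, among them any ending in P and digits, were left out. That drops some coding genes too. Closest in pattern to UHRF1 among the symbols kept were RRM2 (0.0176), HMGB3 (0.0204), SNHG1 (0.0267) and NPM3 (0.0378). For EZH2 they were ITPRID2 (0.0222), CTCF (0.0251), SGK1 (0.0358) and PGBD2 (0.0370). For DNMT1 they were ZC3H13 (0.0288), SUCLA2 (0.0293), FBXL6 (0.0310) and MASTL (0.0310).

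Accessory and alternative PRC2 subunits moved in both directions: of 10 tested, 3 were higher and 1 lower (median log2 fold change 0.13). This made 30% and 10%, against 15.9% and 17.6% of all tested genes. PHF19, a Polycomb-like protein that helps bring PRC2 to chromatin, had 142, 149 and 139 CPM in siEIF4G2 libraries, whereas siNC libraries had 88.2, 84.8 and 83.5 CPM. These groups lay far apart, and the log2 fold change was 0.75 (SE 0.047; edgeR adjusted p = 0.000384). PHF1, another Polycomb-like protein, was 1.17-fold lower (edgeR adjusted p = 0.0291), a call lost whichever library was left out (adjusted p 0.0570 to 0.0839). PHF19 made up 66.5% ± 1.46 of the summed FPKM of PHF1, MTF2 and PHF19 in siEIF4G2 and 52.7% ± 1.27 in siNC. EPOP, which links PRC2 to elongin, was 1.36-fold higher (edgeR adjusted p = 0.00495). JARID2, a PRC2 cofactor, was 1.33-fold higher (edgeR adjusted p = 0.0363), a call lost without siEIF4G2 replicate 2 or 3 or any siNC replicate (adjusted p 0.0734 to 0.102). The histone chaperones RBBP4 and RBBP7 had log2 fold changes of 0.082 and -0.056 and did not pass. EZH1, the alternative catalytic subunit, had 0.18 (edgeR adjusted p = 0.0708), and EZH2 to EZH1 was 3.85 ± 0.0939 in siEIF4G2 and 3.27 ± 0.299 in siNC.

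**Figure D4:**
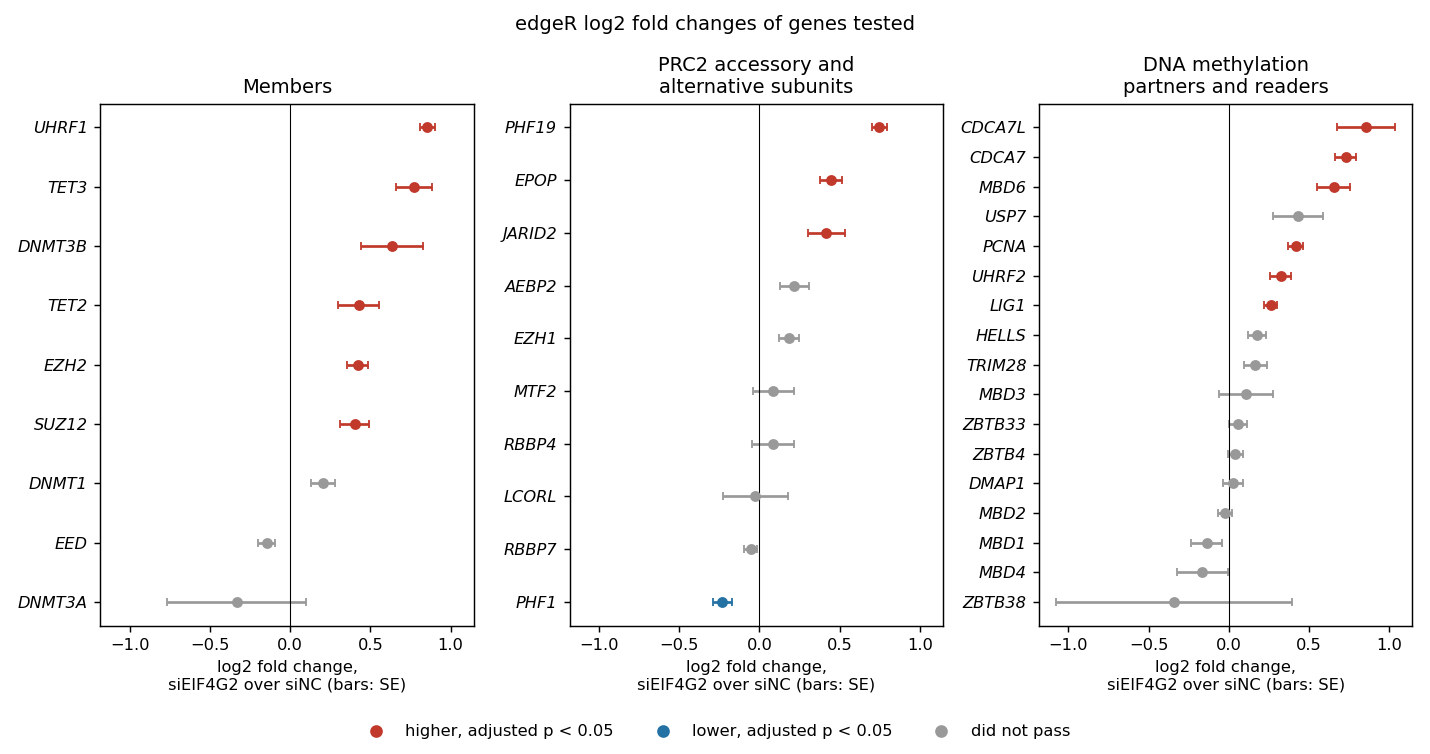
Log2 fold changes of siEIF4G2 over siNC with standard errors, in panels for the tested genes of the 10 and for genes of the partner lists; colours give the edgeR call. UHRF1 stands at 0.85 and PHF19 at 0.75.

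Among partners and readers of DNA methylation, 6 of 18 tested genes were higher and 0 lower (median 0.17). Higher genes made up 33.3% of this list and 15.9% of all tested genes. CDCA7, partner of the remodeller HELLS, was 1.66-fold higher (38.3 ± 0.655 CPM in siEIF4G2, 23.2 ± 1.58 CPM in siNC; edgeR adjusted p = 0.000969). Its paralog CDCA7L was 1.81-fold higher (edgeR adjusted p = 0.0147; 0.0525 without siNC replicate 1), and HELLS had a log2 fold change of 0.17 (edgeR adjusted p = 0.0579). PCNA, the sliding clamp, was 1.33-fold higher and LIG1, the ligase that UHRF1 binds, 1.20-fold higher (edgeR adjusted p = 0.00179 and 0.00422). PCNA also belongs to the S phase list, so the counts of these lists are not independent. MBD6 was 1.57-fold higher (edgeR adjusted p = 0.00572), whereas MBD1, MBD2, MBD3 and MBD4 did not pass.

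Of 15 genes of methyl donor supply, 5 were higher and 1 lower (median 0.086). As shares these were 33.3% and 6.67%, against 15.9% and 17.6% of all tested genes. The 5 became 3 on leaving out siNC replicate 1 or 2, or siEIF4G2 replicate 2 or 3, and the 1 became 2 without siNC replicate 1. MTHFD1, a cytosolic folate enzyme, was 1.12-fold higher (edgeR adjusted p = 0.0395), a call lost in 5 of 6 fits lacking a library (0.0557 to 0.109). MTHFD2, a mitochondrial folate enzyme, was 1.45-fold higher (edgeR adjusted p = 0.000779). AHCY, which clears S-adenosylhomocysteine, was 1.24-fold higher (edgeR adjusted p = 0.00899). MAT2A, which makes S-adenosylmethionine, was 1.10-fold higher (edgeR adjusted p = 0.0490), a call that held only without siNC replicate 3 among fits lacking a library (otherwise 0.0744 to 0.144).

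Among genes of methylation removal and repair, 3 of 18 were higher and 4 lower (median -0.0058). These shares, 16.7% and 22.2%, were near the 15.9% and 17.6% of all tested genes. Without siEIF4G2 replicate 2, 5 were higher, and without siEIF4G2 replicate 1 or siNC replicate 1 or 2 only 2 were lower. The glycosylases UNG and NEIL3 were 1.51-fold higher and 1.47-fold higher (edgeR adjusted p = 0.00179 and 0.00535). GADD45A, a stress-induced protein linked to demethylation, was 1.67-fold lower (12.4 ± 0.735 CPM in siEIF4G2, 20.7 ± 1.16 CPM in siNC; edgeR adjusted p = 0.00188). IDH1 and IDH2, which make the TET cofactor oxoglutarate, were 1.22-fold lower and 1.20-fold lower (edgeR adjusted p = 0.0233 and 0.0148). The IDH2 call was lost without siEIF4G2 replicate 1 (adjusted p = 0.0520) or siNC replicate 1 (0.0535) or 2 (0.0546). The IDH1 call was lost in the same fits and also without siEIF4G2 replicate 3.

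PRC1, the partner complex that ubiquitinates histone H2A, had 7 of 28 tested genes higher and 4 lower (median 0.21). All tested genes had 15.9% higher and 17.6% lower, against 25% and 14.3% for PRC1. Only 1 was lower without siNC replicate 1 or 2, and 2 were without siEIF4G2 replicate 1 or 2, without siNC replicate 3, or scaled by library totals. KDM2B, which brings a PRC1 variant to unmethylated CpG islands, was 1.88-fold higher, at 39.0, 42.3 and 39.3 CPM in siEIF4G2 libraries and 22.2, 21.1 and 21.0 CPM in siNC libraries (edgeR adjusted p = 0.000434). BMI1 and CBX2, of canonical PRC1, were 1.40-fold higher and 1.41-fold higher, and RYBP, of variant PRC1, 1.33-fold higher (edgeR adjusted p = 0.00132, 0.00125 and 0.00535). CBX7, an alternative to CBX2, was 1.35-fold lower (edgeR adjusted p = 0.00891), and CBX2 to CBX7 in FPKM was 12.1 ± 0.893 in siEIF4G2 and 6.31 ± 0.224 in siNC. Among genes opposing Polycomb 4 of 16 (25%) were higher and 0 lower (median 0.17). BAP1, which removes ubiquitin from histone H2A, was 1.41-fold higher and the acetyltransferase CREBBP 1.64-fold higher (edgeR adjusted p = 0.00158 and 0.00757).

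**Figure D5:**
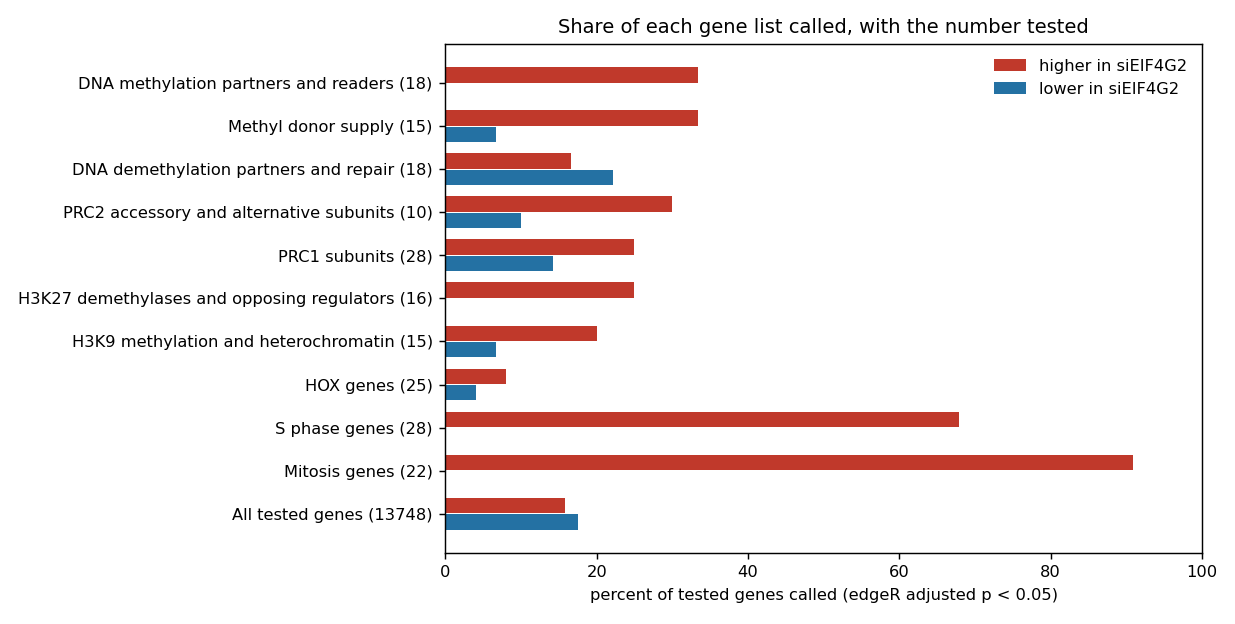
Share of tested genes called higher (upper bar) or lower (lower bar) in siEIF4G2 per gene list, with the number tested in parentheses and all tested genes at the bottom. S phase and mitosis lists stand at 67.9% and 90.9% higher, against 15.9% of all tested genes.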

How the data were processed

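Groups were taken from the sample titles. HISAT2 2.0 and StringTie 1.3.0 appear in the submitters' processing notes with no role, and no build, annotation or strand setting is named there. The deposited counts are treated as estimated counts that the authors rounded to whole numbers, because of 58 low values rescaled from FPKM only 19.0% fell within 0.1 of a whole. FPKM values were computed by the authors, as the column headers name them. Gene intervals overlapped GENCODE 29 (GRCh38) for 99.9% of 58439 shared identifiers.

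Of rows with the same symbol the one with the highest mean FPKM was kept, and testing required 0.5 FPKM in 3 libraries. The main test was edgeR's quasi-likelihood test with TMM factors (0.985 to 1.02) and group as the only term (edgeR 4.0.16, R 4.3.3), two-sided, with Benjamini-Hochberg adjustment. SE is the size of the log2 fold change over the root of F. Alternatives were DESeq2 1.42.0, limma 3.58.1, other scalings and filters, summed rows, a replicate block and leaving out each library. Counts were simulated for this comparison (13748 genes), with 200 genes changed. The test recovered 92%, 54%, 24% and 2% of 4-fold, 2-fold, 1.5-fold and 1.3-fold changes, and 4 of 90 calls were false. The data had 4597 calls, so the adjustment was stricter in the simulation. These shares therefore do not give the recovery in the data. Depth gives the floors stated for 0 counts.

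The 10 genes and 17 other lists were chosen with earlier results of these data known, so none was tested as a set. Named genes are EIF4G2, the 10, up to 6 of smallest p per list and, among the symbols kept for that search, the 4 nearest in pattern to UHRF1, DNMT1 and EZH2. All others named were chosen after their values were seen. Some genes that this rule takes are not reported here.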

Additional observations from a re-analysis of the deposited data

How the results depend on the processing

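Of the 10 genes, 6 were called higher in the main test, and also with RLE size factors, library totals, a 1 FPKM filter, summed rows, DESeq2 and the replicate block; 5 were with limma on either log2 scale, 4 with no filter on low values, and 3 to 5 on leaving out each library, which leaves fewer libraries. None was called lower in any of these. All genes called numbered 4597, and 3352 to 5343 over the alternatives. UHRF1, TET3 and EZH2 were called under every alternative run, and no log2 fold change of the 9 tested genes changed sign. Nothing in the labels ties replicate numbers across groups, and same-numbered libraries deviated together with correlations of only 0.00523, 0.0350 and 0.0530; not every library correlated best with its own number. With the replicate block 3736 genes were called, and the adjusted p was 0.0403 for DNMT1, which passed, and 0.0555 for DNMT3B, which did not. DNMT3B and TET2 were not called when genes of low values were kept in (adjusted p = 0.0744 and 0.0699), where more genes are tested. The replicate block left 3 methyl donor genes higher, 2 PRC1 genes lower, 0 PRC2 accessory genes lower and 1 fibroblast marker higher, while DESeq2 called 11 PRC1 genes and 5 removal genes higher. Of 63 named list genes called, 46 were called under every alternative.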

Other observations

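Of 39 HOX genes, classical PRC2 targets, 13 were under 1 CPM and 25 were tested. Of those tested, 2 were higher and 1 lower, with a median log2 fold change of 0.044. These shares were 8% and 4%, against 15.9% and 17.6% of all tested genes. The tested HOX genes were low, at a mean log2 CPM of 2.98 to 3.17 per library. The shares of all tested genes were not matched for level, and the part of level was not tested. HOXA13 was 1.38-fold higher (33.7 ± 2.42 CPM in siEIF4G2, 24.5 ± 1.12 CPM in siNC) and HOXB5 1.53-fold higher (edgeR adjusted p = 0.00633 and 0.0110). HOXB9 was 1.33-fold lower (edgeR adjusted p = 0.0333), a call lost without siEIF4G2 replicate 1 or 3 or any siNC replicate (adjusted p 0.0610 to 0.0977).

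Germline genes that DNA methylation keeps silent in most tissues were mostly at or near 0. Of 27, 12 had 0 counts in all 6 libraries and 23 were under 1 CPM. Of 4 tested, 0 were higher and 2 lower, where 15.9% and 17.6% of all tested genes were. MAGEB2 averaged 156 ± 2.98 CPM in siEIF4G2 libraries and 181 ± 8.22 CPM in siNC libraries (edgeR adjusted p = 0.0165), a call lost without siEIF4G2 replicate 3 or siNC replicate 1 or 3 (adjusted p 0.0529 to 0.0561). MAGEA3, the other, was 1.16-fold lower (edgeR adjusted p = 0.0441), a call lost in 5 of 6 fits lacking a library. PRAME did not pass (edgeR adjusted p = 0.118).

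Among genes of histone H3 methylation at heterochromatin, 3 of 15 were higher and 1 lower. The shares were 20% and 6.67%, against 15.9% and 17.6% of all tested genes. The methyltransferases SUV39H1 and SUV39H2 were 1.23-fold higher and 1.54-fold higher, and CBX5, heterochromatin protein 1 alpha, 1.20-fold lower (edgeR adjusted p = 0.00944, 0.0128 and 0.00749).

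Like DNMT3A, ASXL2, a BAP1 cofactor looked up after its values were seen, had low and high libraries in both groups: 14.3, 13.3 and 59.1 CPM across siEIF4G2 libraries and 62.0, 11.2 and 63.0 CPM across siNC libraries (edgeR adjusted p = 0.589). The low siNC library was replicate 2 for both genes. The high siEIF4G2 library differed, being replicate 3 for ASXL2 and replicate 2 for DNMT3A.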
